A study of Mus musculus with 9 samples.

Results

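The proteasome is the barrel-shaped protease that degrades ubiquitin-tagged proteins, and the 34 genes described here encode its constitutive subunits together with the classical assembly factors named in the same series. They were chosen by name (Psma1 to Psma7, Psmb1 to Psmb7, Psmc1 to Psmc6 and Psmd1 to Psmd14) and make up 34 of the 21887 coding genes examined. The core particle (14 genes) is built of rings of alpha subunits, which gate the entry pore, and rings of beta subunits, which line the chamber and carry the protease sites. The regulatory particle (20 genes) caps the core: its base holds the ring of Psmc ATPases that unfold substrates, and its lid removes ubiquitin. After interferon gamma the beta subunits Psmb5, Psmb6 and Psmb7 can be replaced by the inducible subunits Psmb8, Psmb9 and Psmb10, so the constitutive protease genes have a known counterpart that responds to interferon.

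Open chromatin was measured by ATAC-seq, where a transposase inserts sequencing adaptors into exposed DNA. The cells came from the mouse melanoma line B16 and were sorted out of tumours taken 15 days after injection into mice. There were 3 groups of 3 libraries. B16_IFNg were B16 cells given chronic interferon gamma before injection, for 2 weeks in replicates 1 and 2 and for 3 weeks in replicate 3. Res499 is strain 499, a line derived from B16 that resists checkpoint blockade, without interferon treatment. B16_untreated were B16 cells without treatment. Res499 is a single derived line, and the labels do not state that each replicate was a different mouse; every p below therefore reflects the spread among these libraries, which may be technical.

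Each library was deposited as a list of peaks, with 16240, 13175 and 11183 peaks in B16_IFNg, 15396, 9221 and 11768 in Res499, and 15045, 25374 and 20139 in B16_untreated. To compare lists of one length, the 9214 peaks with the highest −log10 p were kept per library and ranked, with rank 1 the most significant. A gene was given its best-ranked peak within 1000 bp of either annotated end (GRCm38), and ranks were also written as percentiles of the list, with 100 at the top and 0 for no ranked peak. Groups are said not to overlap by these percentiles, so that peaks outside the 9214, whose ranks come from lists of unequal length, all count as 0. The median ranked peak rested on 15 to 20 fragments at its summit in B16_IFNg, 14 to 23 in Res499 and 30 to 35 in B16_untreated, so the error of each single rank is large. The shortest peak was at least 150 bp long in B16_IFNg replicate 3, Res499 replicate 3 and B16_untreated replicates 1 and 3, and 95 to 125 bp long in the other 5 libraries. No label names such a split: these long and short classes were inferred from the lists, and values within each are given beside the main results. Of 7 melanocyte markers, Pmel and Mitf had a ranked peak in all 9 libraries, Dct in 6, Tyrp1 in 5 (2 of B16_IFNg, 0 of Res499 and 3 of B16_untreated), Tyr in 3, and Mlana and Sox10 in none, with a peak in 1 full list each. Of 6 leukocyte and 3 endothelial markers, 0 had any peak. Of 3 fibroblast markers, Col1a1 had one in 3 full lists of B16_IFNg, 1 of Res499 and 3 of B16_untreated. Pdgfrb had one in 1 full list, of B16_untreated, and Col1a2 had none. The part of these marker differences in the results was not tested.

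The promoter windows below are shown because they carry the contrasts of the text: the start of Psma6 that had no peak and the one that had a peak, the start of Psma3 away from its annotated end, the promoter of Psma4 that separated the groups, the protease genes Psmb5 and Psmb6, and the regulatory genes Psmc2 and Psmd2. They run from 250 bases before to 50 bases after the RefSeq start on the strand of the gene (RefSeq, GRCm38.p6), and capitals mark exact matches, on either strand, to any of the 10 motifs spelled out further on.
Psma6 first start (chr12:55383972-55384271, plus strand): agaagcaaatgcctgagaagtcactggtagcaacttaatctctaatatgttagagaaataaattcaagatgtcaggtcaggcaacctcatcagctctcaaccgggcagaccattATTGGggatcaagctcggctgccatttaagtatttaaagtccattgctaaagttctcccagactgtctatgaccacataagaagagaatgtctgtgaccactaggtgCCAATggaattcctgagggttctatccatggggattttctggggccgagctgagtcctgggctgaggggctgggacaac
Psma6 second start (chr12:55398575-55398874, plus strand): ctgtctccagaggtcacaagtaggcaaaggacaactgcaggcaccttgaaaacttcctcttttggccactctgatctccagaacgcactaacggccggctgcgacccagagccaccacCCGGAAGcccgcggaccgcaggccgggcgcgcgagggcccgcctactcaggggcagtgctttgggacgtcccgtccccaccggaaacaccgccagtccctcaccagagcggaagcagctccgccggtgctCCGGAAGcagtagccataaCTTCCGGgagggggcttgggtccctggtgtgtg
Psma3 (chr12:70974373-70974672, plus strand): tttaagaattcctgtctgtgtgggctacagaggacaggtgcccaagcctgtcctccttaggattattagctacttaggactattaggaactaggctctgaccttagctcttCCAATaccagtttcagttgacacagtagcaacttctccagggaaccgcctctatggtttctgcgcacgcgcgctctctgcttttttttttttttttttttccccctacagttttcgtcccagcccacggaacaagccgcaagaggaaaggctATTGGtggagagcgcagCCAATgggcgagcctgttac
Psma4 (chr9:54950609-54950908, plus strand): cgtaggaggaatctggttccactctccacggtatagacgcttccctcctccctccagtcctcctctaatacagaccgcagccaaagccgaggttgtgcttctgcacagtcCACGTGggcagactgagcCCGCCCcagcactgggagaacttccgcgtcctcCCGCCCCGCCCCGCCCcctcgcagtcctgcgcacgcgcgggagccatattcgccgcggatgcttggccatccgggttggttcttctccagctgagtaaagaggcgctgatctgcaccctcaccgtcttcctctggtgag
Psmb5 (chr14:54617946-54618245, minus strand): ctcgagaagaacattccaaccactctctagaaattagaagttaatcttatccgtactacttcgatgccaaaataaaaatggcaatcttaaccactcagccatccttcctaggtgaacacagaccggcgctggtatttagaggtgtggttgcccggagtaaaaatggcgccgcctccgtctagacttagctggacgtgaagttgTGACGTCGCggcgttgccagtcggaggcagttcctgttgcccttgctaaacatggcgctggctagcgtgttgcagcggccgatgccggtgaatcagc
Psmb6 (chr11:70525107-70525406, plus strand): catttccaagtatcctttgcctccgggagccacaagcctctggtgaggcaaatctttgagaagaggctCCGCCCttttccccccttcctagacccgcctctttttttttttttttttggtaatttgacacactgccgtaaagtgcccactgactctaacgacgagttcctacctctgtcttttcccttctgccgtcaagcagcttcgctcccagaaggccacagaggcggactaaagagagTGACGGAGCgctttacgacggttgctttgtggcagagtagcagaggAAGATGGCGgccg
Psmc2 (chr5:21785025-21785324, plus strand): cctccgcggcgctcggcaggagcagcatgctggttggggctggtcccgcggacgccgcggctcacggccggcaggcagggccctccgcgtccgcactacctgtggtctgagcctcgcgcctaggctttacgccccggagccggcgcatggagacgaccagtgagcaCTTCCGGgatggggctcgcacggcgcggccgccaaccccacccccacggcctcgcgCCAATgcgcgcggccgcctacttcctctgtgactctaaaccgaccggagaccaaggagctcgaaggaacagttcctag
Psmd2 (chr16:20651402-20651701, plus strand): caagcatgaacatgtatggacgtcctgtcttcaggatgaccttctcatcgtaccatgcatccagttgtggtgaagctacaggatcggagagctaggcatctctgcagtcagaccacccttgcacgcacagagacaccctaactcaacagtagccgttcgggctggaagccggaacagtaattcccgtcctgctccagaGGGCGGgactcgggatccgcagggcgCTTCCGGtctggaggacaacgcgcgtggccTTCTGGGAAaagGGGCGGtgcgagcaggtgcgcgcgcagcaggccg

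Most constitutive proteasome genes had open chromatin at an end in most libraries of every group. A ranked peak was present in 215 of the 306 pairs of gene and library (70.3%), against 33.3% of the pairs over all coding genes and 71.6% over 76 cytosolic ribosomal protein genes, another widely used housekeeping set. There were 12 members with a ranked peak in all 9 libraries (35.3% of 34, against 20.1% of coding genes). The share was 39.8% of coding genes with a peak in any library, 35.5% of cytosolic and 32.1% of mitochondrial ribosomal protein genes. The 12 members were Psma1, Psma2, Psma4, Psma5 and Psma7 of the alpha ring, the ATPases Psmc3 and Psmc4, the base scaffold Psmd2, and Psmd3, Psmd11, Psmd13 and Psmd14 of the lid. In the full lists 33 of the 34 genes had a peak in at least 1 library (97.1%, against 50.6% of coding and 96.1% of cytosolic ribosomal protein genes), and 18 had one in all 9 (52.9%, against 26.4% and 60.5%).

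The number of members with a ranked peak did not separate the groups. It was 21, 24 and 25 in the B16_IFNg libraries, 25, 24 and 27 in those of Res499, and 26, 23 and 20 in those of B16_untreated. The means were 23.3 ± 2.08 for B16_IFNg, 25.3 ± 1.53 for Res499 and 23.0 ± 3.00 for B16_untreated (SD, n = 3 each). The ranges of the groups overlapped or met. The share of all coding genes with a ranked peak was as level: 33.5% ± 0.977 for B16_IFNg, 33.6% ± 1.08 for Res499 and 32.9% ± 0.601 for B16_untreated (SD, n = 3 each). In the full lists, members with a peak numbered 30, 27 and 26 in B16_IFNg, 32, 24 and 30 in Res499, and 31, 33 and 33 in B16_untreated. The full lists differ in length, and 39.7% ± 3.96 of all coding genes had a peak in those of B16_IFNg, 37.6% ± 4.97 for Res499 and 45.3% ± 3.04 for B16_untreated (SD, n = 3 each), so the full lists give no comparison between groups.

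**Figure D1:**
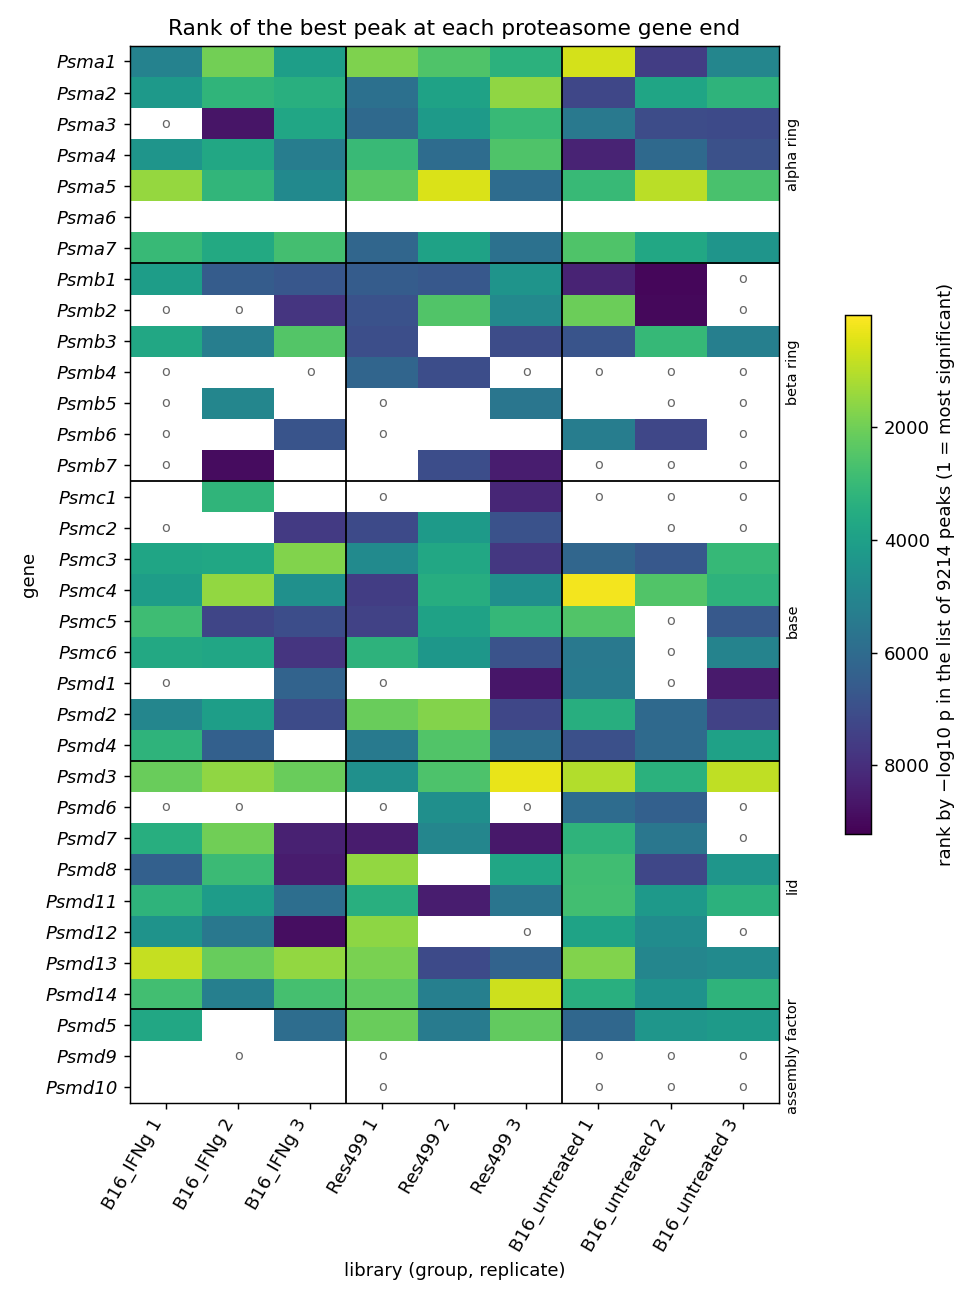
Rank of the best peak within 1000 bp of a gene end for the 34 genes (rows, grouped by subcomplex) in the 9 libraries (columns); the colour bar is linear and runs from the most significant peak to rank 9214, white is no ranked peak, and a small circle marks a peak in the full list only. Most alpha ring and lid rows are filled in all 3 groups. The row of Psma6 is empty, and those of Psmb4 to Psmb7, Psmc1, Psmc2, Psmd1, Psmd6, Psmd9 and Psmd10 are mostly empty.

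Within the proteasome, calls were unevenly spread over the subcomplexes. The alpha ring had a ranked peak in 53 of 63 pairs of gene and library (84.1%) and the lid in 61 of 72 (84.7%). The base had one in 61 of 81 (75.3%), the beta ring in 32 of 63 (50.8%) and the assembly factors Psmd5, Psmd9 and Psmd10 in 8 of 27 (29.6%). These shares are descriptions of 9 libraries and of genes with different neighbours, without a test. The order of the rings held in every library: the median percentile of the alpha ring was above that of the beta ring in 9 of 9 libraries, with medians of 34.2 to 64.3 in the alpha ring and 0 to 24.1 in the beta ring.

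Within the beta ring, the subunits that carry protease sites had fewer peaks as a class than the structural ones. Psmb5 (chymotrypsin-like site), Psmb6 (caspase-like site) and Psmb7 (trypsin-like site) had a ranked peak in 8 of 27 pairs (29.6%), against 24 of 36 (66.7%) for the structural beta subunits Psmb1, Psmb2, Psmb3 and Psmb4, and the structural genes had the higher median percentile in 8 of 9 libraries. By group, the 3 protease genes had a ranked peak in 3 of 9 pairs in B16_IFNg, 3 of 9 in Res499 and 2 of 9 in B16_untreated. For the structural genes it was 7 of 12 in B16_IFNg, 10 of 12 in Res499 and 7 of 12 in B16_untreated, a larger share in each group. By single gene the classes were not apart: the structural gene Psmb4 had a ranked peak in 2 libraries, as did Psmb5, while Psmb6 and Psmb7 had one in 3 each.

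Psmb5 (chr14:54614120-54617995) had a ranked peak in B16_IFNg replicate 2 (rank 4972) and Res499 replicate 3 (rank 5608), and in no B16_untreated library. In the full lists it also had peaks at ranks 10501 in B16_IFNg replicate 1, 10835 in Res499 replicate 1, and 16593 and 16674 in B16_untreated replicates 2 and 3. Its peaks held 10 to 17 fragments at the summit. Psmb6 (chr11:70525324-70527858) had ranks of 12514, none and 6836 in B16_IFNg, 14894, none and none in Res499, and 5314, 7256 and 12865 in B16_untreated. Psmb7 (chr2:38588046-38643952) had ranks of 15701, 8923 and none in B16_IFNg, none, 7035 and 8479 in Res499, and 11144, 17268 and 17689 in B16_untreated. No group had a ranked peak at any of the 3 genes in all 3 of its libraries, and in the ranked lists the groups overlapped for each gene. Psmb6 and Psmb7 came closest to a separation, in opposite directions. Psmb6 had a ranked peak in 0 Res499 and 2 B16_untreated libraries, and Psmb7 in 2 Res499 and 0 B16_untreated libraries.

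The core and the regulatory particle were close in how often they were called. A ranked peak was found in 7, 10 and 10 of the 14 core genes in B16_IFNg, 10, 10 and 11 in Res499, and 10, 10 and 7 in B16_untreated. Among the 20 regulatory genes there were 14, 14 and 15 in B16_IFNg, 15, 14 and 16 in Res499, and 16, 13 and 13 in B16_untreated. Pooled over libraries this is 67.5% of pairs in the core and 72.2% in the regulatory particle, and the ranges of the 3 groups overlapped for both particles.

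By rank, the regulatory particle stood above the core in 7 of 9 libraries. The median percentile of the core minus that of the regulatory particle was -35.2, -13.3 and 14.8 in B16_IFNg (mean -11.2 ± 25.1, SD, n = 3), -13.3, -13.1 and 12.9 in Res499 (mean -4.49 ± 15.1, SD, n = 3), and -25.8, -12.6 and -25.1 in B16_untreated (mean -21.2 ± 7.40, SD, n = 3). Replicate 3 of B16_IFNg and replicate 3 of Res499 had the opposite order; both are of the long class, whose other members, B16_untreated replicates 1 and 3, had the usual order. The mean over the 9 libraries was -12.3 points. It was -3.12 points in lists of 4607 peaks, where the regulatory particle was higher in 3 of 9 libraries. Counting peaks at the RefSeq starts, a choice made after seeing Psma3 and Psma6, moved the mean to 0.643 points, with the regulatory particle higher in 6 of 9.

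**Figure D2:**
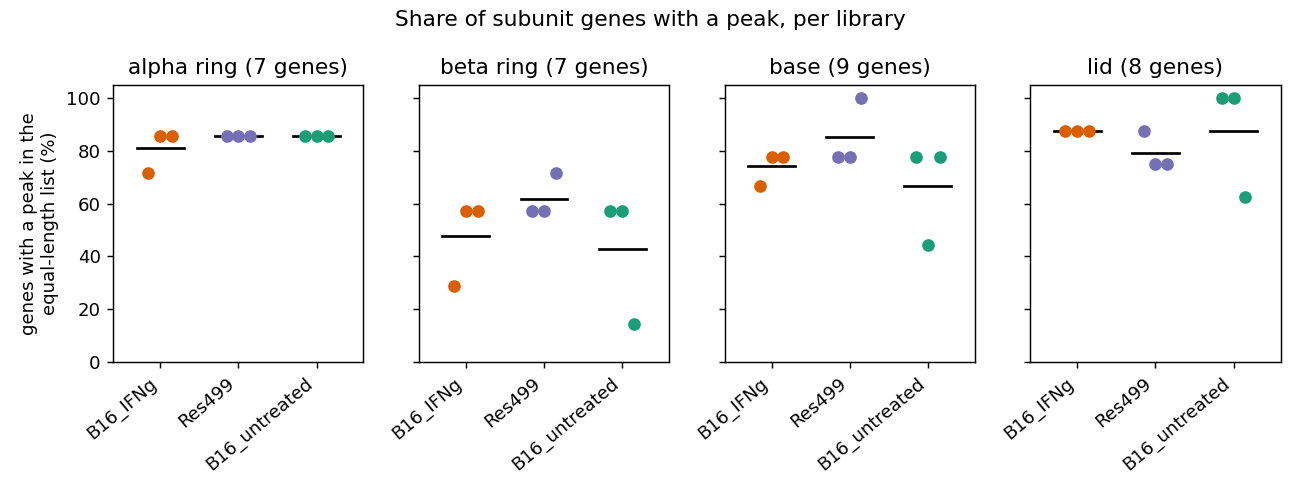
Share of genes with a ranked peak (%, linear axis from 0) in the alpha ring, beta ring, base and lid; each point is 1 library, the horizontal bar is the mean of 3 libraries, and B16_IFNg, Res499 and B16_untreated run from left to right. The alpha ring is at 85.7% in 8 of the 9 libraries, while the beta ring spans 1 to 5 of its 7 genes.

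The alpha ring shows how much an annotated gene end can miss. Psma6 (chr12:55384222-55418459), an alpha subunit, was the 1 member with no peak at either annotated end in any library. RefSeq gives it a second start at 55398825, and a peak lay at that start in all 9 libraries, at ranks 2977, 4622 and 4499 in B16_IFNg, 2464, 1689 and 2058 in Res499, and 3510, 3074 and 2557 in B16_untreated. The Res499 libraries had the best ranks and did not overlap the other groups (mean percentile 77.5 ± 4.21 in Res499, 56.2 ± 9.94 in B16_IFNg and 66.9 ± 5.18 in B16_untreated, SD, n = 3 each). At annotated ends, 6.69% of coding genes were higher without overlap in Res499 than in B16_untreated, and 5.3% than in B16_IFNg. These shares were not counted with RefSeq starts added. limma's difference was 10.6 points between Res499 and B16_untreated (adjusted p = 0.950) and 21.3 points between Res499 and B16_IFNg (adjusted p = 0.886), and neither passed. The windows printed above differ in composition: the first start holds 3 CpG pairs and the second 22.

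Psma3 (chr12:70969283-70995877), another alpha subunit, had a peak within 681 bp of its annotated low end in all 9 full lists, but its RefSeq start is at 70974623. The peak at that start ranked at 2535, 2017 and 1386 in B16_IFNg, 2354, 3831 and 2105 in Res499, and 334, 1038 and 949 in B16_untreated. All 6 libraries of B16_IFNg and Res499 stood lower than all 3 of B16_untreated. The mean percentile was 74.3 ± 8.85 (SD, n = 6) in both groups together and 91.6 ± 4.16 (SD, n = 3) in B16_untreated, a difference of -17.3 points (exact two-sided permutation p = 0.0238, unadjusted; limma adjusted p = 0.969 over 4749 genes). Within the long class the difference was -12.0 points and within the short class -17.9 points, with 1 B16_untreated library in the short class and 1 library each of B16_IFNg and Res499 in the long class. With RefSeq starts counted, 1.13% of 9044 coding genes were lower without overlap and 1.11% higher.

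The other alpha genes were open throughout. Psma5 (chr3:108256926-108279952) had ranks of 1471, 3136 and 4834 in B16_IFNg, 2364, 517 and 5965 in Res499, and 3016, 945 and 2636 in B16_untreated, the second best mean percentile of the members (70.0). Psma1 ranked between 589 and 7543, Psma2 between 1528 and 7246 and Psma7 between 2548 and 6172. The peaks of Psma2 and Psma7 also lay within 1000 bp of the ends of Mrpl32 and Ss18l1, so those peaks cannot be credited to a single gene.

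Across all members, no gene passed the test between groups. Over the 4406 coding genes with a ranked peak in all 9 libraries, 12 of them members, limma on percentiles with Benjamini-Hochberg adjustment called 0 genes (0.0%) in each of the 4 contrasts. At an unadjusted p under 0.05 it gave 140 genes (3.18%) and 0 members for B16_IFNg minus B16_untreated, 236 genes (5.36%) and the members Psma4 and Psmc4 for Res499 minus B16_untreated, 249 genes (5.65%) and Psmd13 for Res499 minus B16_IFNg, and 174 genes (3.95%) and Psma4 for both groups minus B16_untreated. The comparisons with B16_untreated share those 3 libraries. The median difference over the 12 members was 3.70 points for B16_IFNg minus B16_untreated and -4.53 points for Res499 minus B16_untreated, against 0.0886 and -0.353 points over the 4406 genes.

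**Figure D3:**
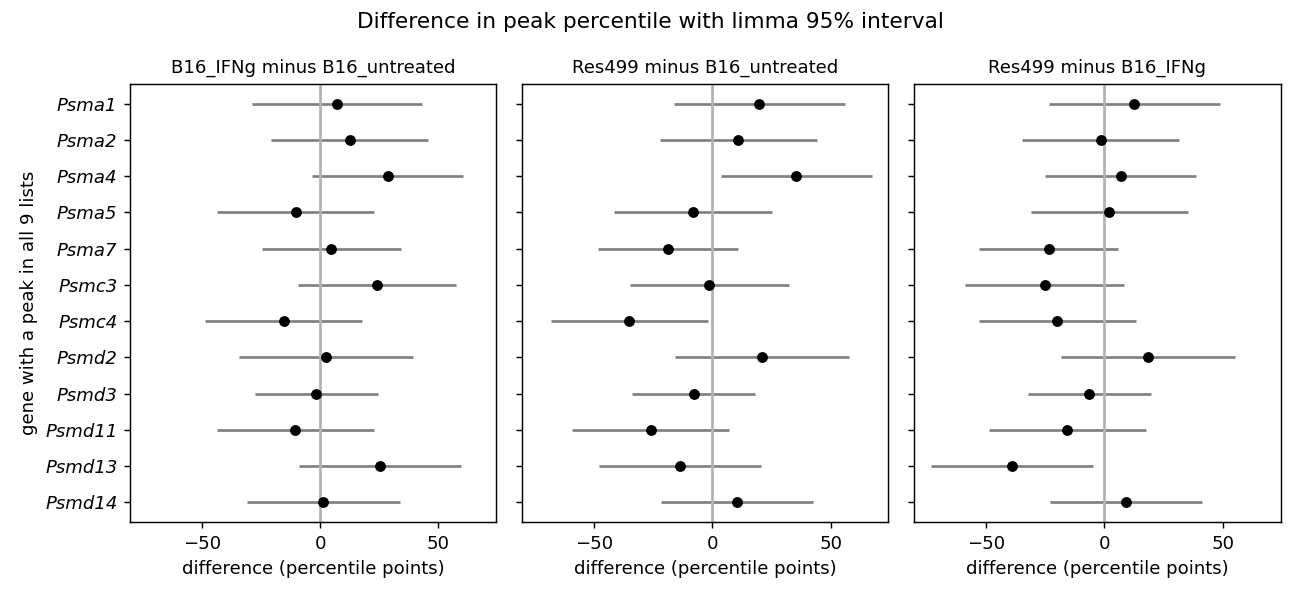
Difference in peak percentile (points, linear axis) with limma's 95% interval for the 12 members with a ranked peak in all 9 libraries, in 3 comparisons. Most intervals cross 0; those of Psma4 and Psmc4 in Res499 minus B16_untreated and of Psmd13 in Res499 minus B16_IFNg do not, and none of the 3 passed after adjustment over 4406 genes.

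The proteasome genes with the clearest separation between groups were Psmb1 and Psma4, both of the core. Of 28 members with a ranked peak in at least 3 libraries, these 2 had every B16_IFNg and Res499 library above every B16_untreated library, against 1.1% of 8421 coding genes, and 0 had the reverse, against 1.13%. They were picked out after their values were seen.

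Psmb1 (chr17:15475721-15498276), a structural beta subunit, had its peak within 65 bp of the high-coordinate end. It ranked at 4087, 6521 and 6723 in B16_IFNg, 6527, 6675 and 4447 in Res499, and 8300, 9037 and 10511 in B16_untreated, the last of these below the ranked list. The B16_untreated libraries were all lower than the others. The mean percentile was 36.7 ± 13.2 (SD, n = 6) in B16_IFNg and Res499 together and 3.95 ± 5.27 (SD, n = 3) in B16_untreated, a difference of 32.8 points (exact two-sided permutation p = 0.0119, the smallest that 84 choices allow, unadjusted over members). The difference was 34.4 points within the long class and 33.5 points within the short class, where B16_untreated has 1 library. It shrank to 9.21 points with a window of 2.5 kb (p = 0.405, exact permutation) and to 2.47 points in lists of 4607 peaks (p = 0.75, exact permutation).

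A rank is a standing within a library, not an amount of open chromatin. At its summit the Psmb1 peak held 21, 12 and 16 fragments in B16_IFNg, 15, 12 and 24 in Res499, and 28, 22 and 25 in B16_untreated, so the summit was not smaller in B16_untreated. The median ranked peak held 20, 15 and 19 fragments in B16_IFNg, 19, 14 and 23 in Res499, and 32, 30 and 35 in B16_untreated. The exact Poisson 95% interval of the 12 fragments in B16_IFNg replicate 2 runs from 6.20 to 21.0, which would put that peak between ranks 13164 and 846, and this covers counting error only. The nearest neighbour on that side, Tbp (chr17:15499888-15517427), begins 1612 bp beyond the end of Psmb1. Its own peak ranked at 9387, 11388 and none in B16_IFNg, 7645, 7970 and none in Res499, and 4275, 8458 and 7302 in B16_untreated. Tbp was ranked in no B16_IFNg library and in all 3 B16_untreated libraries, the opposite order to Psmb1.

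Psma4 (chr9:54950781-54958034), an alpha subunit, ranked at 4398, 3674 and 5304 in B16_IFNg, 2980, 5954 and 2543 in Res499, and 8281, 6060 and 6943 in B16_untreated. Res499 replicate 2 and B16_untreated replicate 2 were almost level, and the other libraries were further apart. The mean percentile was 55.1 ± 14.4 (SD, n = 6) in both groups together and 23.0 ± 12.1 (SD, n = 3) in B16_untreated, a difference of 32.0 points (exact two-sided permutation p = 0.0238, unadjusted; limma adjusted p = 0.971). It was 40.03 points within the long class and 19.6 within the short class, resting on the same few libraries. The peak lay within 1000 bp of the ends of Hykk and AY074887 in all 9 libraries, and with each peak given to its nearest gene the difference was 4.98 points (exact permutation p = 0.798). The summit fragments were 19, 14 and 17 in B16_IFNg, 20, 12 and 26 in Res499, and 24, 23 and 26 in B16_untreated.

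**Figure D4:**
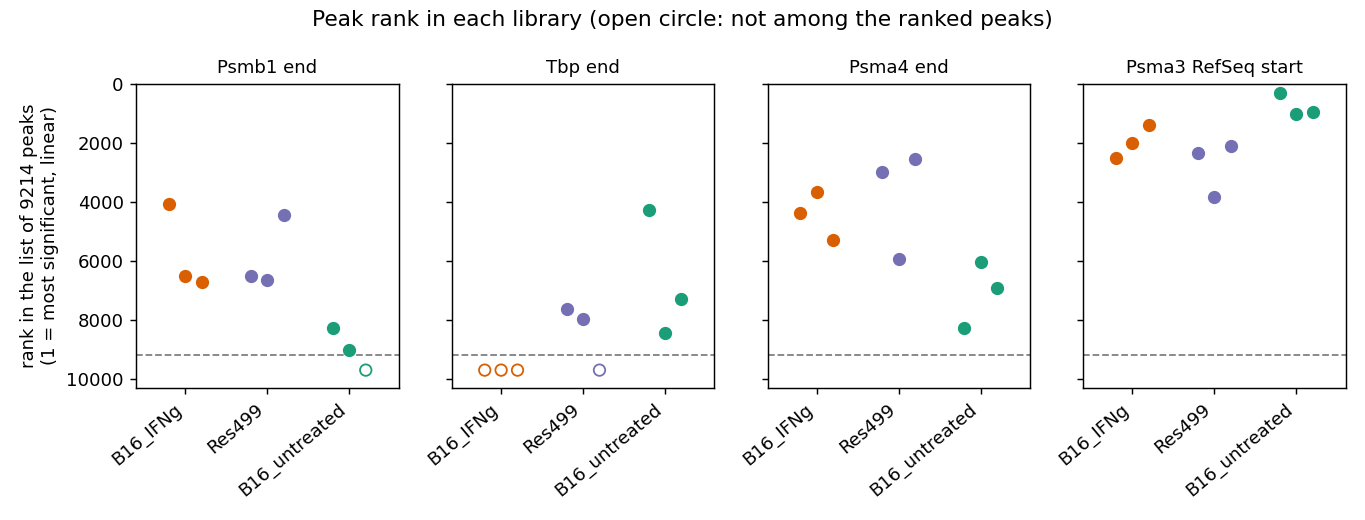
Peak rank (linear axis, rank 1 at the top) at the ends of Psmb1, Tbp and Psma4 and at the RefSeq start of Psma3; each point is 1 library, open circles are libraries without a ranked peak and the dashed line is rank 9214. All B16_IFNg and Res499 points stand above B16_untreated for Psmb1 and Psma4 and below it for the Psma3 start.

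In the single comparisons, 0 to 3 members separated in each direction. For B16_IFNg against B16_untreated, 2 of 25 members were higher without overlap (Psma4 and Psmb1; 5.68% of coding genes) and 0 lower (4.3%). For Res499 against B16_untreated, 3 of 26 were higher (Psma4, Psmb1 and Psmc2; 6.69%) and 2 lower (Psmb3 and Psmc4; 5.98%). For Res499 against B16_IFNg, 2 of 25 were higher (Psmb2 and Psmc2; 5.3%) and 2 lower (Psma7 and Psmb3; 5.43%). With 3 libraries against 3, an exact two-sided permutation test cannot go below p = 0.1, and that was its value for each of these genes.

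Psmc2 (chr5:21785275-21803787), an ATPase of the base, was the 1 member with a ranked peak in all 3 libraries of one group and none of another (Res499 over B16_untreated, as for 0.965% of 7771 coding genes; 0 members in the other direction, against 0.824%). It ranked at 7159, 4187 and 6906 in Res499, against 9511 and 16311 in replicates 2 and 3 of B16_untreated and no peak in replicate 1, all outside the ranked list. In B16_IFNg it ranked at 14136, none and 7644. The B16_untreated peaks thus existed but stood lower in their lists, with 19 and 16 summit fragments, against 16, 14 and 20 in Res499. The peak also lay within 1000 bp of the end of Dnajc2, and under assignment to the nearest gene the gain was no longer counted. No member had such an all-or-none pattern for B16_IFNg over B16_untreated (0.49% of coding genes) or the reverse (0.348%), for Res499 over B16_IFNg (0.507%) or the reverse (0.621%), or for both groups over B16_untreated (0.0713%) or the reverse (0.0594%).

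Psmc4 (chr7:28041702-28050092), another ATPase, went the other way. It ranked at 7526, 3464 and 4629 in Res499, 4080, 1485 and 4587 in B16_IFNg, and 163, 2504 and 3257 in B16_untreated, where rank 163 was the best of any member in any library. Its mean percentile was 43.5 ± 22.7 in Res499 and 78.6 ± 17.5 in B16_untreated (SD, n = 3 each), a difference of -35.1 points (limma adjusted p = 0.841). No other coding gene shared the Psmc4 peak.

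Psmb2 and Psmb3, structural beta subunits, differed between Res499 and B16_IFNg in opposite directions. Psmb2 (chr4:126677637-126709715) ranked at 6889, 2515 and 4869 in Res499, against 12075, 10546 and 7780 in B16_IFNg, a difference of 43.2 points (mean percentile 48.4 ± 23.8 and 5.19 ± 8.99, SD, n = 3 each). In B16_untreated it ranked at 2063, 9020 and 10165, a spread as wide as that between the groups. Psmb3 (chr11:97703434-97713500) had ranks of 6995, none and 7077 in Res499, against 3683, 5282 and 2457 in B16_IFNg, a difference of -42.9 points (mean percentile 15.8 ± 13.7 and 58.7 ± 15.4, SD, n = 3 each). B16_untreated lay between, at 6819, 3054 and 5229, and the peak also lay near an end of Pcgf2. Psmb4, the remaining structural subunit, had ranks of 6192 and 7054 in Res499 replicates 1 and 2 and no ranked peak in B16_IFNg or B16_untreated.

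In the regulatory particle, the lid genes Psmd3, Psmd13 and Psmd14 were among the 4 members with the best mean percentile (77.7, 62.3 and 63.7). Psmd3 (chr11:98682554-98695978) ranked at 2101, 1544 and 2090 in B16_IFNg, 4603, 2577 and 303 in Res499, and 1072, 3337 and 891 in B16_untreated. Psmd14 (chr2:61711694-61800376), the deubiquitinase of the lid, ranked at 2808, 5248 and 2718 in B16_IFNg, 2302, 5223 and 695 in Res499, and 3387, 4525 and 3224 in B16_untreated. The groups overlapped for both genes. Psmd13 (chr7:140882394-140898642) ranked at 1853, 7152 and 6264 in Res499, against 824, 2140 and 1509 in B16_IFNg, a difference of -39.1 points (limma adjusted p = 0.834), and at 1734, 4969 and 4791 in B16_untreated. Its peak lay within 1000 bp of an end of Sirt3 in all 9 libraries.

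The remaining regulatory genes did not separate the groups in the ranked lists in any comparison. Psmd11 ranked between 2808 and 8475, Psmc3 between 1758 and 7729, and Psmd2 between 1724 and 7394 in all 9 libraries. Psmc5, Psmc6, Psmd4, Psmd5, Psmd7 and Psmd8 had a ranked peak in 8 libraries each. Psmd5, which helps to assemble the base, differed by 33.1 points between Res499 and B16_IFNg (mean percentile 65.0 ± 20.2 and 31.9 ± 30.2, SD, n = 3 each; exact two-sided permutation p = 0.2). Psmd12 had a ranked peak in 6 libraries, Psmd1 in 4, Psmd6 in 3 and Psmc1 in 2. Psmd6, a lid subunit, had ranks of 13464, 10366 and none in B16_IFNg, 14129, 4610 and 10379 in Res499, and 5972, 6395 and 9268 in B16_untreated, so it was ranked in 0 B16_IFNg, 1 Res499 and 2 B16_untreated libraries. Psmc1, an ATPase, had ranks of none, 3185 and none in B16_IFNg, 11434, none and 8235 in Res499, and 10063, 13269 and 10380 in B16_untreated.

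The assembly factors Psmd9 and Psmd10, which leave the finished particle, had no ranked peak in any library. In the full lists Psmd9 had peaks in 1 B16_IFNg, 1 Res499 and 3 B16_untreated libraries, and Psmd10 in 0, 1 and 3. Those peaks held 6 to 19 fragments, and with longer lists in B16_untreated the groups cannot be compared on them.

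Most member peaks sat near promoters. Of the 172 ranked peaks at members with a strand in the promoter table, 172 were nearest to the 5′ end of the gene, against 96.3% over coding genes. These include the 8 ranked peaks of Psma3, near its annotated end but with summits -6335 to -5835 bp from its RefSeq start. Over all these member peaks the summit lay a median of 73.5 bp from the RefSeq start, against 99 bp over coding genes. It lay within 200 bp in 89.5% of the member peaks, against 73.3%. Member peaks were 481 bp wide at the median, against 575 bp. These values describe position and width only, since several libraries repeat the same promoter.

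Promoter windows could be read for 28 of the 34 genes (30 windows, 12 of the core and 18 of the regulatory particle); windows of Psmb1, Psmb2, Psmb7, Psmc3, Psmd3 and Psmd7 were not used here. The letters searched on both strands were CCGGAAG (ETS factors), CCAAT (NF-Y), GGGCGG (Sp factors), TGACNNNGC (antioxidant response core, the type of site used by Nfe2l1), GCATGCGC (Nrf1), AAGATGGCG (YY1), TGACGTCA (CREB and ATF), CACGTG (E-box), GAAANNGAA (interferon response element) and TTCNNNGAA (GAS). TGACNNNGC can share its first letters with TGACGTCA, and GAAANNGAA its last letters with TTCNNNGAA; a match is a run of letters, not a site shown to be bound.

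The ETS letters were unevenly spread between the particles. They were found in 1 of 12 core windows (8.33%) and 10 of 18 regulatory windows (55.6%), against 11.6% of 21263 coding promoters, 19.6% of those of coding genes with a peak in all 9 libraries and 8.86% of all promoters. Here and below, promoters with a peak in all 9 libraries are 4980 windows of 3887 coding genes. Those genes had a ranked peak within 1000 bp of a RefSeq start, so they are not the 4406 genes tested above. The regulatory genes were Psmc1, Psmc2, Psmc6, Psmd2, Psmd4, Psmd6, Psmd11, Psmd12 and Psmd13, and the core window was the second start of Psma6, which holds 3 such runs. Psmc2 has 2 windows, and both hold a match. The NF-Y letters ran the other way, in 6 of 12 core windows and 5 of 18 regulatory windows (27.8%). NF-Y letters were in 38.2% of coding promoters and 44.2% of those with a peak in all 9 libraries, so the core share was near that of coding genes. The Psma3 window holds 3 such runs. The Sp letters were in 41.7% of core and 72.2% of regulatory windows, against 46.2% of coding promoters and 71.0% of those with a peak in all 9 libraries.

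The antioxidant response core was found in 5 of 30 windows (16.7%), those of Psmb5, Psmb6, Psmc6, Psmd9 and Psmd12. It was in 2759 of 21263 coding promoters and in 15.5% of those with a peak in all 9 libraries. The member share was thus near that of promoters with such peaks. It was the same, 16.7%, in core and in regulatory windows. The protease genes Psmb5 and Psmb6 carry these letters 47 and 9 bases before the start, as printed above. The interferon response letters were also in 5 windows (16.7%, against 8.15% of coding promoters), of Psmb3, Psmb4, Psmc2, Psmd4 and Psmd9. The GAS letters were in 1 (3.33%, against 7.69% of coding promoters), that of Psmd2. Of the genes with interferon response letters, Psmc2 was higher and Psmb3 lower in Res499 than in both other groups without overlap. The Psmc2 letters lie only in its second window (chr5:21786497-21786796), which is not printed above. All Psmc2 peaks ended at or before 21785460, outside that window. Psmd4 did not separate the groups in any comparison. Psmb4 and Psmd9 had a ranked peak in 2 and 0 libraries, too few to be counted. A link between these letters and the ranks was not tested. The median member window held 20 CpG pairs, against 13 in coding promoters and 24 in those with a peak in all 9 libraries.

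**Figure D5:**
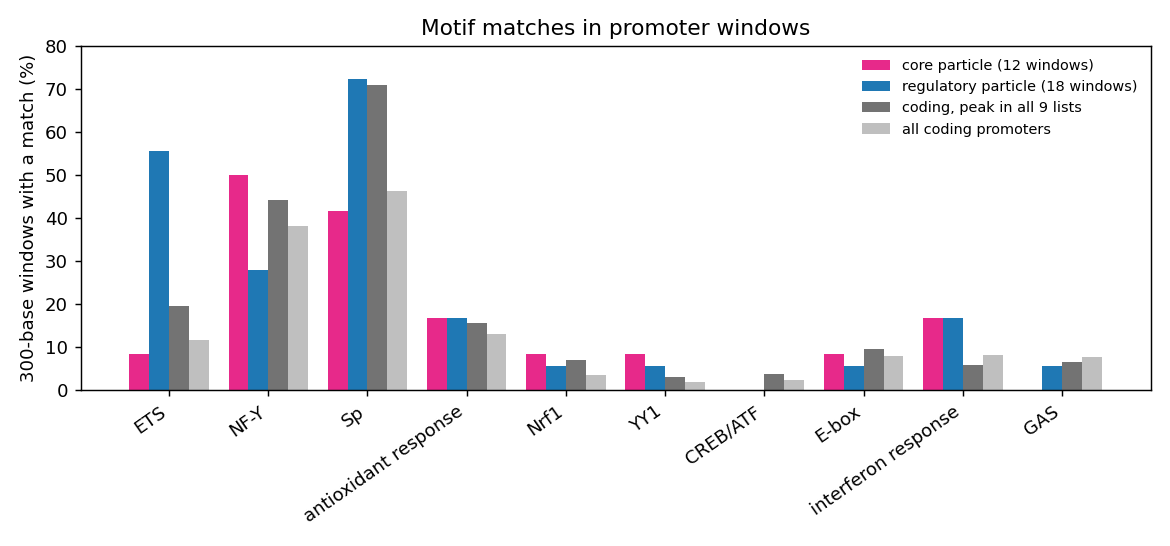
Share of promoter windows of 300 bases with an exact match to each motif (%, bars from 0), for the core particle (12 windows), the regulatory particle (18 windows), coding promoters with a peak near a RefSeq start in all 9 libraries and all coding promoters. The ETS bar is 8.33% in the core and 55.6% in the regulatory particle.

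Among 27 other genes of the pathway, 10 had a ranked peak in all 9 libraries, 3 had no peak in any list (the inhibitor Psmf1, the thymus subunit Psmb11 and the testis subunit Psma8), and 0 of the 10 tested passed limma's test in any contrast. The deubiquitinase Uchl5 ranked between 117 and 3626. The ubiquitin receptor Adrm1 ranked at 300, 565 and 190 in B16_IFNg, 1406, 3344 and 1557 in Res499, and 172, 176 and 398 in B16_untreated. Adrm1 was lower without overlap in Res499 than in both other groups, and the chaperones Pomp and Psmg4 were higher. Of coding genes, 5.98% were lower and 6.69% higher than in B16_untreated, and 5.43% and 5.3% than in B16_IFNg. Usp14 in Res499 and Psme3 in B16_IFNg were lower than in B16_untreated without overlap. The transcription factor Nfe2l1, which drives proteasome genes when proteasome activity is short, ranked between 713 and 5226, and Nfe2l2 between 2278 and 6057. Of the inducible subunits, Psmb9 ranked at 6679, 4131 and 2784 in B16_IFNg, 3676, 1730 and 2635 in Res499, and 10591, 8041 and 8395 in B16_untreated. All 6 libraries of the first groups stood above B16_untreated, as for 1.1% of 8421 coding genes. The activator gene Psme2 was lower in Res499 (5319, 4332 and 5116) than in B16_untreated (3247, 2645 and 675), as for 5.98% of coding genes. In B16_IFNg it ranked at 5805, 3685 and 1031. Psmb6, which Psmb9 replaces, was ranked in 1 B16_IFNg, 0 Res499 and 2 B16_untreated libraries, and a link of Psmb6 to Psmb9 was not tested. Psmb8 was ranked in 1 Res499 library and Psmb10 in 2 B16_untreated libraries.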

How the data were processed

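ATAC-seq peak lists of 9 libraries on GRCm38 (mm10) were used. The submitters' processing notes name CASAVA, cutadapt 1.9, Bowtie2 2.2.4 and MACS2. Version and settings of MACS2, and any transposase shift of reads, are not given in the sources used here. Peaks were called per library by the authors. The deposited values are a score, the fold enrichment over local background (a ratio), the peak's −log10 p and −log10 q, and a summit offset. They were used to describe and rank peaks within a list, and no read counts are given; the fold and −log10 p together gave whole summit fragments for 100% of peaks with a −log10 p under 200, within 0.01.

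Per library, the 9214 peaks of highest −log10 p were retained, from autosomes, X and Y. Gene ends came from a RefSeq table of GRCm38.p6, starts and strands from a RefSeq promoter table. Percentiles were tested with limma 3.58.1 (trend) in R 4.3.3 over coding genes ranked in all 9 lists, and single genes by exact permutation in SciPy 1.17.1. Simulated percentiles were used to check the limma step. The members and lists were chosen with earlier results of these data known. Named in full were members missing from some library, gained or lost, called, best or lowest in mean rank, or with the largest shifts; others are summarised by range. Paaf1, an assembly chaperone, was not matched in the gene table.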

Additional observations from a re-analysis of the deposited data

How the results depend on the processing

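The comparisons were repeated with the log2 of the rank, ranking by fold, a window of 2.5 kb, assignment to the nearest gene only, the fragment class as a term, RefSeq starts added, and each library left out; list length (all deposited peaks or 4607 per library) was varied for the counts. RefSeq starts were added after seeing the data. Leaving out replicate 3 of both B16_IFNg and Res499 was also tried, but these were picked for their order, which fixes the outcome, so it is not read. limma's count of genes stayed at 0 in all 4 contrasts, except for 1 gene, Pclo, which is no member, for Res499 minus B16_untreated on the log2 of the rank. The replicate numbers did not pair the libraries (correlations of same-numbered libraries of -0.0217 to 0.0579), and with the replicate number as a block the count was 0 in all 4 contrasts. The 12 members ranked in all libraries became 1 in lists of 4607 peaks and 12 to 14 with a library left out. The count of 1 member gained or lost in a comparison (Psmc2) was 0 in lists of 4607 peaks, 0 with the nearest gene only and 1 to 3 with a library left out. With all deposited peaks it was 1, the loss of Psmd10 in B16_IFNg against B16_untreated. Ranked by fold it was 7, in Psmb1, Psmb3, Psmc2, Psmd6 and Psmd10, since a member can count in more than 1 comparison. The 2 members without overlap became 0 in lists of 4607 peaks, 1 with a window of 2.5 kb, 1 with the nearest gene only, and 2 to 3 with a library left out; ranked by fold they were Psmb1 and Psmd10, and RefSeq starts added Psma3 (3 in all). The core minus regulatory difference of -12.3 points turned to 0.643 points with RefSeq starts added (regulatory higher in 6 of 9 libraries), and was -3.12 in lists of 4607 peaks (3 of 9), -7.05 with all deposited peaks, -20.9 ranked by fold and -15.7 to -9.43 points with a library left out. Exact permutation p for Psmb1 was 0.0714 without B16_untreated replicate 2 or 3, over 28 choices, and 0.0714 for Psma4 without B16_untreated replicate 1. Few fragments per summit limit all ranks.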
